A study of Mus musculus with 3 samples.

Results

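The axon guidance ligands and receptors are the semaphorins of classes 3 to 7, the plexins and neuropilins that bind them, the ephrins and their Eph receptor kinases, and the Slit proteins with their Robo receptors. They were chosen by gene symbol alone among the protein-coding genes, which gave 60 genes of 21131, and the rule uses no measured value. Their transcripts were counted by RNA sequencing in 3 populations of immune cells sorted from the gut epithelium of mice, with 1 library per population. Cells positive for the leukocyte marker CD45 and for CD8α gave the iCD8a library. The ILC1 library came from group 1 innate lymphoid cells, sorted as positive for NKp46 and NK1.1. The CD11b+ library came from myeloid cells that carried CD45 and CD11b and lacked CD8α. All 3 groups, the myeloid cells that serve as comparison included, were RAG-2 null, a genotype in which antigen receptor genes cannot be rearranged. Rag2 had 0 counts in every library. Rag1 had 0, 0 and 1 in iCD8a, ILC1 and CD11b+, so the Rag2 counts do not test the genotype. The sources used here do not give sex, age or the number of animals behind a library.

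These families were named for steering growing axons, and immune and epithelial cells use them as well. Semaphorins signal mostly through plexins, large receptors whose inner part switches off Ras-family GTPases, and the secreted class 3 members mostly need a neuropilin as co-receptor. Ephrins are held in the membrane, so Eph receptors are engaged at contacts between cells, and signals run into both cells. In the gut epithelium, EphB receptors and B-type ephrins are known for sorting cells along the crypt. In leukocytes, SEMA4D, SEMA4A and SEMA7A are known for acting in contacts between T cells and antigen-presenting cells, and plexins for the migration of dendritic cells.

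Levels are CPM, counts per 1e+06 counts on genes after scaling by the trimmed mean of M-values (TMM). The iCD8a library held 21678113 counts on genes, ILC1 22181660 and CD11b+ 30511296. The floor used for a count of 0 was 3 counts, which stand for 0.127, 0.136 and 0.106 CPM. The upper end of the 95% Poisson interval of 0 counts lies higher, at 0.156, 0.168 and 0.131 CPM. The range given after a fold is its 95% exact interval and holds counting error alone, not variation between animals. A gene was counted as higher or lower, and called apart, from a 4-fold difference on, provided that the interval stayed beyond 2-fold and that the library with more of it reached 5 CPM. With 1 library per population no difference here has a replicate check, and no p-value was computed. In sorted bulk samples, fewer cells of a type and less RNA per cell cannot be told apart. Transcripts of the sort markers other than CD45 were highest in the library sorted for them. In iCD8a, ILC1 and CD11b+ in turn, Cd8a stood at 2636, 4.41 and 28.3 CPM and Ncr1 (NKp46) at 1.44, 396 and 2.23. Klrb1c (NK1.1) stood at 207, 546 and 14.7 CPM, and Itgam (CD11b) at 362, 187 and 845. Ptprc (CD45) was high in all 3, at 2136, 2695 and 1795 CPM, and highest in ILC1. A list of 24 intestinal epithelial markers had 21, 21 and 24 genes at 1 CPM or more, 0 at 0 counts in any library, and summed to 916.5, 539 and 2178 CPM. Of these sums Cdh1, Cdh17 and Epcam made up 706, 339 and 461 CPM, and the other 21 genes summed to 210.1, 199.9 and 1717. The median of its gene folds was 8.79-fold lower in iCD8a than in CD11b+ (quartiles 7.59 and 10.04). For ILC1 against CD11b+ that median was 8.79-fold lower too (7.44 and 9.7), so most epithelial markers ran with the CD11b+ library. Macrophage and monocyte markers summed to 71.8, 745 and 8431 CPM over 14 genes, and plasmacytoid dendritic cell markers to 962, 330 and 248 CPM over 8 genes.

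**Figure D1:**
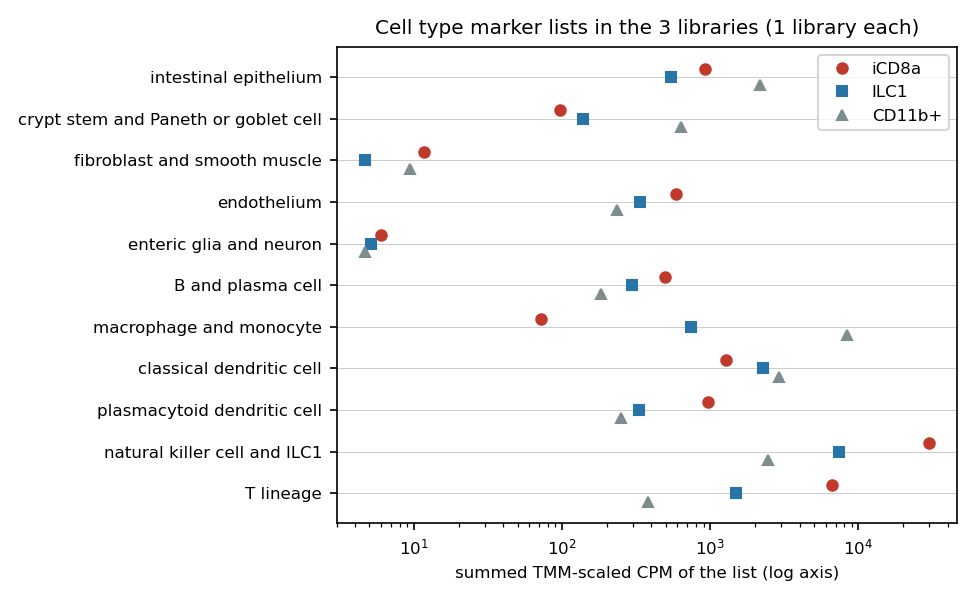
Summed TMM-scaled CPM (log axis) of 11 lists of cell type markers, with 1 point per library. Intestinal epithelial markers, with 706 of the 916.5 CPM in iCD8a from Cdh1, Cdh17 and Epcam, are highest in CD11b+ at 2178, and macrophage and monocyte markers summed to 71.8 CPM in iCD8a and 745 in ILC1, with 8431 in CD11b+. The endothelial sum is mostly Pecam1, which leukocytes also carry.

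Promoter sequence is shown for 4 members with large gaps between the populations and 1 annotated start: Nrp2, high in iCD8a, and Plxnc1, Plxnd1 and Sema7a, high in CD11b+. Each window holds 250 bases before and 50 after the start, from RefSeq on GRCm38.p6, written 5′ to 3′ on the gene's strand as that table gives it. The bases after the start matched a GENCODE transcript of the gene in the sense direction for Nrp2, Plxnd1 and Sema7a, and in neither direction for Plxnc1. They lie at chr1:62703067-62703366 (plus strand), chr10:94944796-94945095 (minus), chr6:115994956-115995255 (minus) and chr9:57939862-57940161 (plus), in the order named. Capitals mark the GC box GGGCGG, the usual Sp1 and KLF motif, or its reverse complement CCGCCC, and overlapping matches run together.

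Nrp2: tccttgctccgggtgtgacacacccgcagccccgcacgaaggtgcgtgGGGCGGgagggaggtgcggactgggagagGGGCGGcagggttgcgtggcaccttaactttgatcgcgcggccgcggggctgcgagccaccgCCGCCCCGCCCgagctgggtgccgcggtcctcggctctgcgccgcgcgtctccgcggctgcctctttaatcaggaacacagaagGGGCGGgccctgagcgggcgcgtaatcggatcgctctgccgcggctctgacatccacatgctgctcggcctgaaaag
Plxnc1: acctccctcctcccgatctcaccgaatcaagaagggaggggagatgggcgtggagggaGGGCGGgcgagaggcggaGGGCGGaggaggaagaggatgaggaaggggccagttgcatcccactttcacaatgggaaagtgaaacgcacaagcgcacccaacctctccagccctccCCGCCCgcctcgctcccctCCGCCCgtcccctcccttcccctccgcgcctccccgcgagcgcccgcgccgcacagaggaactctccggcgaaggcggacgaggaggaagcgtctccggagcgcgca
Plxnd1: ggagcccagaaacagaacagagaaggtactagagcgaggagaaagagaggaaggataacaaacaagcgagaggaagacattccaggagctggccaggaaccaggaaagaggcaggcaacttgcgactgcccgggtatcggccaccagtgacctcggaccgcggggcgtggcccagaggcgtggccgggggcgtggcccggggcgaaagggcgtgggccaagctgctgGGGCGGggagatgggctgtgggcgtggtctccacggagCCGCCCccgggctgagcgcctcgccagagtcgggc
Sema7a: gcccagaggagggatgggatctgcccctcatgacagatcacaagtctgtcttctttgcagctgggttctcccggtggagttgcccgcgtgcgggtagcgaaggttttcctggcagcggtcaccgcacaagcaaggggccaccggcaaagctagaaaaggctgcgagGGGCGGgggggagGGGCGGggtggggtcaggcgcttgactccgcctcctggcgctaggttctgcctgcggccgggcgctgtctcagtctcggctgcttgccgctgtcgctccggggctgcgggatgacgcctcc

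The Nrp2 window held 5 GC boxes, Plxnc1 4, and Plxnd1 and Sema7a 2 each, with 37, 30, 23 and 23 CpG dinucleotides against a median of 7 over 32851 RefSeq windows of the same length. Over all members, 53 genes matched the table with 69 windows, and 49 of these windows (71%) held a GC box against 35.7% of all windows. The TATA motif TATAAA, searched on both strands like the others, was found in 2 (2.9%) against 13.6%. The ETS-type core GAGGAA was found in 21 (30.4%) against 28.3%, with 4 matches in Plxnc1, 2 in Plxnd1 and 0 in Nrp2 and Sema7a. GC-rich windows with no TATA motif were thus shared by members with opposite patterns. These are letter matches in a window and not binding sites.

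Of the 60 members, 21 reached 5 CPM in at least 1 library, 36 reached 1 CPM, and 3 (Sema3g, Epha6 and Slit2) had 0 counts in every library. At least 1 CPM was found for 21 members in iCD8a, 23 in ILC1 and 33 in CD11b+, which is 35%, 38.3% and 55% of the members against 52.3%, 52.5% and 56.8% of all protein-coding genes. Among the 21 members at 5 CPM or more, 3 were highest in iCD8a, 4 in ILC1 and 14 in CD11b+. The last is 66.7% of them, against 37.2% of the 10712 protein-coding genes at that level. Sema4g, Sema7a, Plxna1, Efna1 and Robo4 reached 5 CPM in CD11b+ alone, so for these the limit itself makes CD11b+ the highest. How many of all genes passed in that way was not counted. The CD11b+ library held the most members, though at 1 CPM its share was close to that of all genes. The lymphoid libraries fell below that share and held few members at high level. What epithelial RNA adds to the CD11b+ set was not tested.

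**Figure D2:**
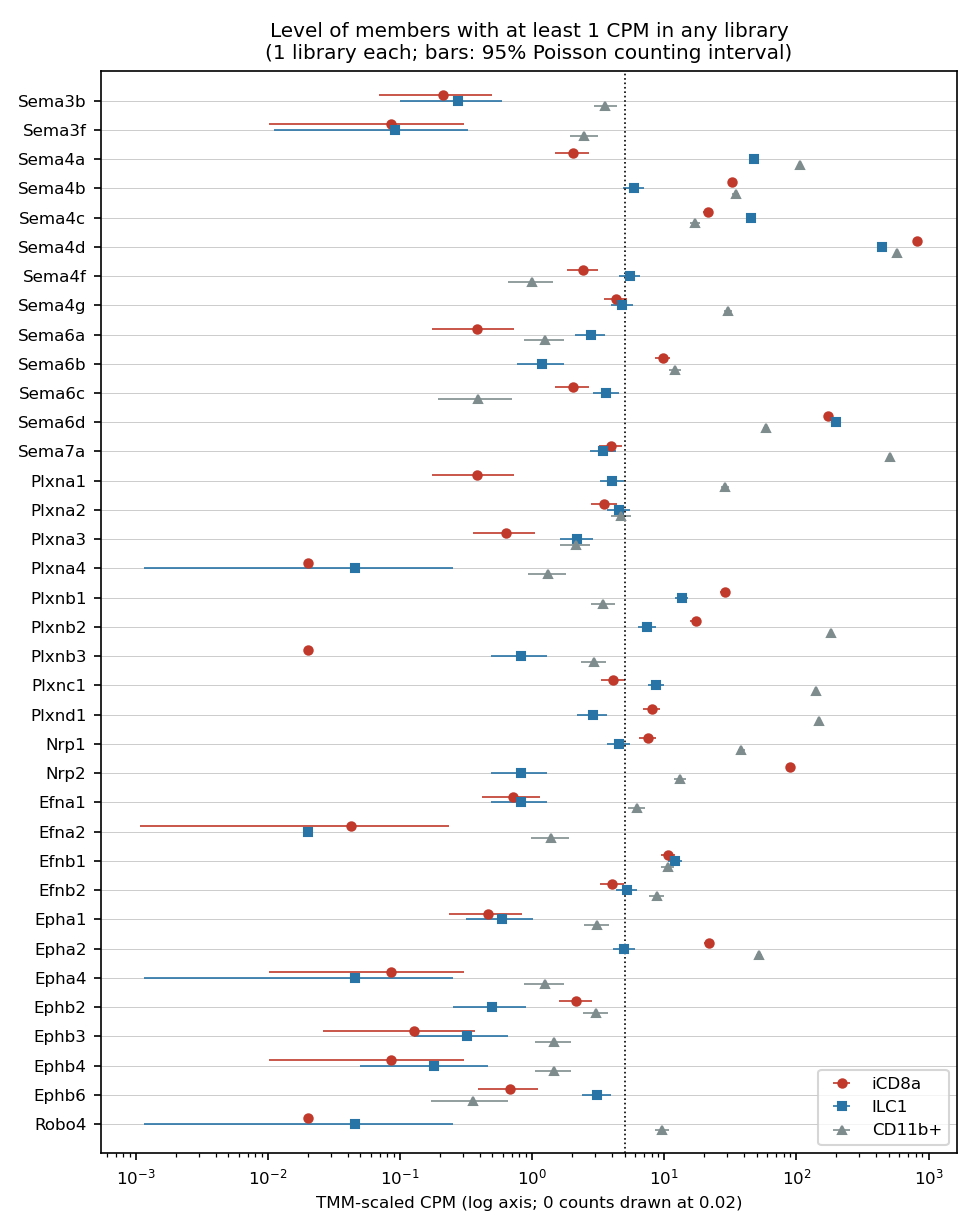
TMM-scaled CPM (log axis) of the 36 members that reach 1 CPM in some library, with 1 point per library, a 95% Poisson counting interval as bar, and the 5 CPM line dotted. Sema4d lies to the right in all 3 libraries, Nrp2 is highest in iCD8a at 89.8 CPM, and Sema7a, Sema4a, Plxnb2, Plxnc1 and Plxnd1 pass 100 CPM in CD11b+ alone.

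The secreted class 3 semaphorins, known mostly as repellents and mostly as ligands of neuropilins, were at the bottom of the range. None of the 7 reached 5 CPM in any library. The most abundant were Sema3b, with 5, 6 and 101 counts in iCD8a, ILC1 and CD11b+, and Sema3f, the main ligand of neuropilin 2, with 2, 2 and 70. That is 3.58 and 2.48 CPM in CD11b+. Sema3c had 0, 0 and 10 counts, Sema3a 1, 7 and 1, Sema3e 1, 6 and 1, and Sema3d 1, 0 and 1. At this depth the lymphoid libraries held close to no class 3 ligand.

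The class 4 semaphorins, which span the membrane, made up most of the semaphorin level in both lymphoid libraries. Sema4d, which encodes CD100, a ligand of B plexins and of CD72, was the most abundant member in both lymphoid libraries. The iCD8a library had 19426 counts (822 CPM), ILC1 9825 (446 CPM) and CD11b+ 16265 (576.5 CPM). Per kilobase of exon that is 107, 58.1 and 75.1 CPM, the 97.1, 93.2 and 94.7 percentile of the protein-coding genes detected in each library. Its level was 1.84-fold higher in iCD8a than in ILC1 (1.8 to 1.89) and 1.43-fold higher than in CD11b+ (1.4 to 1.46), differences beyond counting error and far inside the 4-fold limit.

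Sema4a, a semaphorin of dendritic cells and activated T cells that binds plexin D1 and B plexins, was the member that set iCD8a apart on the low side. It had 48 counts in iCD8a (2.03 CPM), 1051 in ILC1 (47.8 CPM) and 2993 in CD11b+ (106 CPM). Its level was 23.5-fold lower in iCD8a than in ILC1 (17.6 to 32.1) and 52.2-fold lower than in CD11b+ (39.3 to 71). ILC1 stood 2.22-fold below CD11b+ (2.07 to 2.38). Of 10 classical dendritic cell markers, 1 (Zbtb46, at 3.05, 92.2 and 49.2 CPM) was lower in iCD8a than in ILC1, and 4 (Flt3, Clec9a, Cd209a and Clec10a) were higher. These are 12.5% and 50% of the 8 at 5 CPM or more in either library, against 4.74% and 3.51% of all protein-coding genes. That list summed to 1285, 2256 and 2896 CPM, with 10, 6 and 10 genes at 1 CPM or more and 0 at 0 counts. Of 14 macrophage and monocyte markers, 9 were lower and 1 was higher in iCD8a than in ILC1, with a median 16.3-fold lower (quartiles 4.83 and 33.4), and 14 were lower than in CD11b+. Against ILC1, 81.8% of the 11 macrophage markers at 5 CPM or more were lower and 9.09% higher, against 4.74% and 3.51% of all genes. The macrophage list had 7, 13 and 14 genes at 1 CPM or more and 0 at 0 counts. What part either cell type has in the Sema4a counts was not tested.

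Sema4b and Sema4c moved in opposite ways between the lymphoid libraries. Sema4b had 774 counts in iCD8a (32.8 CPM), 129 in ILC1 (5.86 CPM) and 977 in CD11b+ (34.6 CPM), 5.59-fold higher in iCD8a than in ILC1 (4.63 to 6.79) and level with CD11b+ within counting error. Sema4c had 506 counts (21.4 CPM), 992 (45.1 CPM) and 483 (17.1 CPM) in that order, 2.11-fold lower in iCD8a than in ILC1 (1.89 to 2.35). ILC1 thus held the least Sema4b and the most Sema4c.

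Sema4f had 57 counts in iCD8a (2.41 CPM), 120 in ILC1 (5.45 CPM) and 28 in CD11b+ (0.993 CPM), and was 5.49-fold higher in ILC1 than in CD11b+ (3.62 to 8.61). Sema4g had 101 counts (4.27 CPM), 106 (4.82 CPM) and 853 (30.2 CPM). Its level was 7.07-fold lower in iCD8a than in CD11b+ (5.75 to 8.78) and 6.28-fold lower in ILC1 than in CD11b+ (5.13 to 7.76), beside the 8.79-fold of the epithelial markers in both comparisons. Whether epithelial RNA gave the Sema4g counts was not tested.

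Among the other membrane semaphorins, Sema6d was a transcript of both lymphoid populations. SEMA6D binds plexin A1 and is known from heart development and from T cell responses. It had 4085 counts in iCD8a (173 CPM), 4381 in ILC1 (199 CPM) and 1664 in CD11b+ (59 CPM). The 2 lymphoid libraries differed by 1.15-fold, lower in iCD8a (1.1 to 1.2), and stood 2.93-fold (2.77 to 3.1) and 3.38-fold (3.19 to 3.57) above CD11b+. Neither passed 4-fold.

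Sema6b separated the lymphoid libraries in the way of Sema4b. It had 231 counts in iCD8a (9.78 CPM), 26 in ILC1 (1.18 CPM) and 340 in CD11b+ (12.1 CPM), 8.27-fold higher in iCD8a than in ILC1 (5.5 to 12.9). Sema6a had 9, 61 and 35 counts and Sema6c 48, 80 and 11, each under 4 CPM and highest in ILC1. Sema5a and Sema5b had at most 23 counts.

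Sema7a, a lipid-anchored semaphorin that binds plexin C1 and β1 integrins, had the largest gap of the ligands. It had 93 counts in iCD8a (3.94 CPM), 76 in ILC1 (3.45 CPM) and 14372 in CD11b+ (509 CPM). The lymphoid libraries did not differ beyond counting error. Their levels were 129-fold (106 to 160.5) and 147.5-fold (118 to 187) below CD11b+, in iCD8a and in ILC1 in turn. The epithelial markers had a median of 8.79-fold in both comparisons, and whether epithelial RNA added to the Sema7a counts was not tested. Per kilobase of exon Sema7a was the most abundant member in CD11b+, at 154.5 CPM, the 97.6 percentile of detected genes.

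Summed per kilobase of exon, semaphorins came to 139 CPM in iCD8a, compared with 101 in ILC1 and 273 in CD11b+. Sema4d was 76.8% of the sum in iCD8a and 57.8% in ILC1, whereas Sema7a was 56.6% in CD11b+. Plexins summed to 7.16, 4.93 and 65.1 CPM on the same scale. Both families were thus highest in CD11b+.

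**Figure D3:**
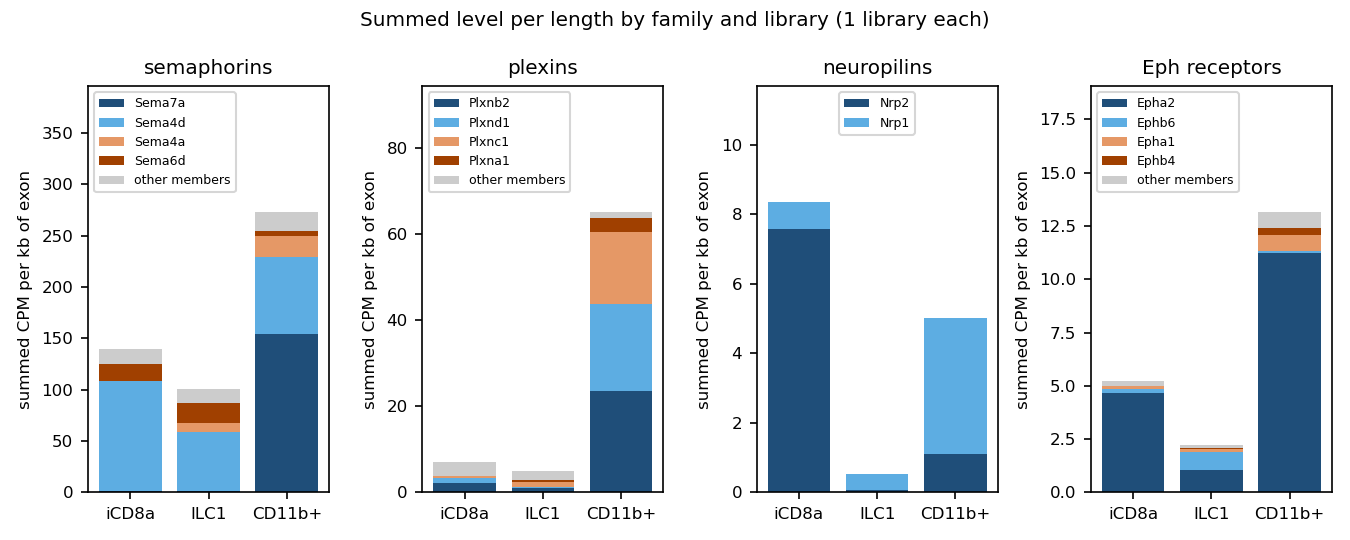
Summed CPM per kilobase of exon (bars from 0, a separate scale for each family) for semaphorins, plexins, neuropilins and Eph receptors in each library, with up to 4 members of highest level in any library coloured. Plexins summed to 7.16 in iCD8a, compared with 4.93 in ILC1 and 65.1 in CD11b+, and Nrp2 was 90.8% of the neuropilin sum in iCD8a.

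The plexins divided into 1 member that was highest in iCD8a and a group that was high in CD11b+. Plxnb1, the high-affinity receptor for SEMA4D, had 679 counts in iCD8a (28.7 CPM), 298 in ILC1 (13.5 CPM) and 97 in CD11b+ (3.44 CPM). Its level was 2.12-fold higher in iCD8a than in ILC1 (1.85 to 2.44) and 8.36-fold higher than in CD11b+ (6.75 to 10.45). ILC1 over CD11b+ was 3.94-fold (3.12 to 5.01), just under the limit, which it passed with unscaled library totals (log2 2.07). All 3 libraries thus held the ligand Sema4d and some of this receptor, with more Plxnb1 in the 2 lymphoid libraries. Sema4d itself stood higher in CD11b+, at 576.5 CPM, than in ILC1, at 446.

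Plxnb2, which binds SEMA4C and SEMA4D, ran the other way. It had 409 counts in iCD8a (17.3 CPM), 164 in ILC1 (7.45 CPM) and 5121 in CD11b+ (181.5 CPM), 10.5-fold lower in iCD8a than in CD11b+ (9.48 to 11.6) and 24.4-fold lower in ILC1 than in CD11b+ (20.9 to 28.6). Epithelial cells are known to carry Plxnb2 too, and the first of these folds lies close to the 8.79-fold of the epithelial markers. Their part in it was not tested.

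Plxnc1, the plexin for SEMA7A, had 97 counts in iCD8a (4.11 CPM), 191 in ILC1 (8.68 CPM) and 3947 in CD11b+ (139.9 CPM). Plxnd1, a receptor for SEMA3E and SEMA4A, had 190 counts (8.04 CPM), 63 (2.86 CPM) and 4155 (147 CPM). Plxnc1 was 34.1-fold lower in iCD8a than in CD11b+ (27.9 to 42.1) and 16.1-fold lower in ILC1 than in CD11b+ (13.9 to 18.7). For Plxnd1 the 2 values were 18.3-fold (15.8 to 21.3) and 51.5-fold (40.1 to 67.1). Both plexins were far higher in the myeloid library, and the order of the lymphoid libraries differed between them.

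Plxna1, a receptor for class 3 and class 6 semaphorins that is known in dendritic cells, had 9 counts in iCD8a (0.381 CPM), 89 in ILC1 (4.04 CPM) and 810 in CD11b+ (28.7 CPM). Its level was 75.4-fold lower in iCD8a than in CD11b+ (39.5 to 165.5) and 7.1-fold lower in ILC1 than in CD11b+ (5.7 to 8.94). The 10.6-fold gap between iCD8a and ILC1 (5.35 to 24) lies under the 5 CPM minimum. Plxna2 was near level at 3.51, 4.54 and 4.71 CPM. Plxna3 (15, 48 and 60 counts), Plxnb3 (0, 18 and 83) and Plxna4 (0, 1 and 37) stayed below 5 CPM.

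Neuropilins, co-receptors for class 3 semaphorins and for vascular growth factors, gave the clearest mark of iCD8a. Nrp2 had 2122 counts in iCD8a (89.8 CPM), 18 in ILC1 (0.818 CPM) and 370 in CD11b+ (13.1 CPM). Its level was 109.8-fold higher in iCD8a than in ILC1 (69.3 to 186) and 6.85-fold higher than in CD11b+ (6.13 to 7.67). The Poisson intervals of the 3 levels did not overlap. The same held for Sema4d and Sema6d, which were not called apart in any pair, and the intervals hold counting error alone. Nrp1 was highest in CD11b+, with 177 counts (7.49 CPM), 100 (4.54 CPM) and 1075 (38.1 CPM), 5.09-fold lower in iCD8a than in CD11b+ (4.34 to 6) and 8.39-fold lower in ILC1 than in CD11b+ (6.83 to 10.4). Nrp2 was 90.8% of the neuropilin level per kilobase in iCD8a, and Nrp1 77.9% in CD11b+.

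Of 8 markers of plasmacytoid dendritic cells, 4 had the order of Nrp2, which is iCD8a, then CD11b+, then ILC1, and 3 of these, Siglech, Spib and Ly6d, were called higher in iCD8a than in both others. Siglech stood at 224 CPM in iCD8a, compared with 0.954 in ILC1 and 12.9 in CD11b+, Spib at 94.7, 0.682 and 11.5, and Ly6d at 75.7, 0.136 and 3.51. Over the list, 3 genes were higher and 0 lower in iCD8a than in ILC1, and 5 higher and 0 lower than in CD11b+. The higher genes are 37.5% and 62.5% of 8, against 3.51% and 5.72% of all protein-coding genes. Tcf4, Ccr9 and Pacsin1 had more CPM in ILC1 than in CD11b+, and Runx2 was highest in ILC1, at 88.4, 150 and 64.5 CPM. All 8 genes of that list were at 1 CPM or more in iCD8a, 5 in ILC1 and 8 in CD11b+, with 0 at 0 counts. Of 11 endothelial markers, Cdh5 (11.2, 0.0909 and 1.56 CPM) and Kdr (3.38, 0.0909 and 0.319) had the order of Nrp2, while Flt1 (0.127, 0.0909 and 19.5), Esam (0.0423, 0 and 6.56) and Vwf (2.24, 3.91 and 8.83) were highest in CD11b+. In that list 4, 2 and 5 of 11 genes reached 1 CPM, 2, 3 and 1 were at 0 counts, and the sums were 586, 333 and 234 CPM. The part of either cell type in the Nrp2 level was not tested.

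Other receptors and co-receptors for semaphorins were taken from a list of 17 genes, 16 of them matched. Over all protein-coding genes at 5 CPM or more in either library, the shares called were 3.51% higher and 4.74% lower between iCD8a and ILC1, 5.72% and 13.2% between iCD8a and CD11b+, and 5.66% and 12.9% between ILC1 and CD11b+. Of 6 receptors at that level, 1 (16.7%) was higher and 1 lower in iCD8a than in ILC1. Of 11, 2 (18.2%) were higher and 5 (45.5%) lower in iCD8a than in CD11b+, and of 10, 1 (10%) was higher and 5 (50%) were lower in ILC1 than in CD11b+. Nrcam, a neuronal adhesion molecule that joins neuropilin 2 in semaphorin receptors of neurons, was at 42.2 CPM in iCD8a, compared with 0.227 in ILC1 and 0.993 in CD11b+, and was higher in iCD8a than in both others. The chains of the integrin that binds SEMA7A, Itga1 and Itgb1, stood at 525, 303 and 52.7 CPM and at 114, 475.5 and 328 CPM. Itga1 was thus higher in both lymphoid libraries than in CD11b+, and Itgb1 lower in iCD8a than in ILC1. Cd72, the receptor for SEMA4D on B cells, was found in all 3 at 121, 138 and 69.3 CPM. Trem2, which pairs with plexin A1 in dendritic cells, had 0, 4 and 293 counts.

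The receptor kinases Met, Erbb2 and Mst1r, which join B plexins, were lower in both lymphoid libraries than in CD11b+, as was the vascular growth factor receptor Flt1 (0.127, 0.0909 and 19.5 CPM). Met stood at 0.466, 0.364 and 16.7 CPM, Erbb2 at 0.762, 1.5 and 8.86, and Mst1r at 0.804, 1.04 and 9.18. These kinases are epithelial as well, and the epithelial marker values above stand beside them.

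Ephrins were low, and the most abundant in the lymphoid libraries, Efnb1, was even. Efnb1, a membrane-spanning ligand of EphB receptors, had 252 counts in iCD8a (10.7 CPM), 266 in ILC1 (12.1 CPM) and 300 in CD11b+ (10.6 CPM). No pair differed beyond counting error. Efnb2 had 95 counts (4.02 CPM), 114 (5.18 CPM) and 247 (8.76 CPM), 2.18-fold lower in iCD8a than in CD11b+ (1.71 to 2.79) and 1.69-fold lower in ILC1 than in CD11b+ (1.35 to 2.13). The lipid-anchored ephrin Efna1 had 17 counts (0.719 CPM), 18 (0.818 CPM) and 174 (6.17 CPM). Its level was 8.57-fold lower in iCD8a than in CD11b+ (5.2 to 15.1) and 7.54-fold lower in ILC1 than in CD11b+ (4.63 to 13). The epithelial markers had a median of 8.79-fold in both comparisons, and whether epithelial RNA gave the Efna1 counts was not tested. Efna2 had 1, 0 and 39 counts, and Efna3, Efna4, Efna5 and Efnb3 had at most 15.

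Of the 14 Eph receptors, Epha2 alone reached 5 CPM. It had 516 counts in iCD8a (21.8 CPM), 109 in ILC1 (4.95 CPM) and 1479 in CD11b+ (52.4 CPM). Epha2, which binds A-type ephrins and is best known from epithelia and tumours, was 4.41-fold higher in iCD8a than in ILC1 (3.58 to 5.47). It was 2.4-fold lower in iCD8a than in CD11b+ (2.17 to 2.66) and 10.6-fold lower in ILC1 than in CD11b+ (8.71 to 13). The epithelial list had a median of 0.03 on the log2 scale for iCD8a over ILC1. Within that list Epcam, at 154, 31.3 and 180.3 CPM, and Cdh17, at 193, 19.1 and 72.3 CPM, were higher in iCD8a than in ILC1. The part of epithelial cells in the Epha2 level was not tested.

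The other Eph receptors were scarce. Ephb2, which orders cells along the crypt, had 51, 11 and 85 counts, and its level was 4.32-fold higher in iCD8a than in ILC1 (2.22 to 9.19) at 2.16 against 0.5 CPM. Ephb6, a kinase-dead receptor known in T cells, had 16, 68 and 10 counts and was highest in ILC1 at 3.09 CPM. Epha1 had 11, 13 and 87 counts, Ephb3 3, 7 and 41, Ephb4 2, 4 and 41, and Epha4 2, 1 and 35. The last 4 were highest in CD11b+. Epha1 shares 236 bases of exon with Zyx on the opposite strand, which had 1884, 3765 and 12368 counts. With no stated strand setting, how reads on the shared bases were assigned is not known. Reads set aside as ambiguous took 1.08%, 0.889% and 0.922% of all counts in a file. Epha3, Epha5, Epha7, Epha8, Epha10 and Ephb1 had at most 19 counts in any library.

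Slits and Robos were close to absent, with 1 exception. The 3 Slit genes had 7, 3 and 20 counts in all. Robo1, Robo2 and Robo3 had at most 10 counts in a library, and the 10 are those of Robo3 in iCD8a, with 0 in ILC1 and 1 in CD11b+. Robo4, a receptor known from the endothelium, had 0 counts in iCD8a, 1 in ILC1 and 272 (9.64 CPM) in CD11b+. Set against the floor of 3 counts in iCD8a, it was 76-fold lower there than in CD11b+. In ILC1 it was 212-fold lower than in CD11b+ on that 1 count (37.8 to 8411). The endothelial genes Cdh5, Tek and Emcn stood at 1.56, 0.106 and 0 CPM in CD11b+, while Flt1 and Esam were at 19.5 and 6.56 CPM.

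Members that stood apart were then counted against all protein-coding genes. Between iCD8a and ILC1, 16 members reached 5 CPM in either library. Of these 4 (25%) were higher in iCD8a, Nrp2, Sema6b, Sema4b and Epha2, against 3.51% of 9804 protein-coding genes. Sema4a (6.25%) was lower, against 4.74%. The other 11 were not apart. The median log2 ratio over the 36 members at 1 CPM or more was −0.27 (quartiles −1.18 and 0.93), beside 0.06 over 12621 protein-coding genes.

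Between iCD8a and CD11b+, 2 of 20 members (10%) were higher in iCD8a, Nrp2 and Plxnb1, against 5.72% of 10509 genes. There were 10 (50%) lower in iCD8a, against 13.2%: Sema4a, Sema4g, Sema7a, Plxna1, Plxnb2, Plxnc1, Plxnd1, Nrp1, Efna1 and Robo4. The median log2 ratio of the 36 members was −2.51 (quartiles −4.27 and −0.06), beside 0.04 over all genes, −1.66 over all members with a count and −1.26 over the 21 at 5 CPM or more. Some of the 36, such as Robo4, Plxnb3 and Efna1, reached 1 CPM in CD11b+ alone, so the filter itself made their ratio negative. All genes passed the same filter, and how many of them did so through CD11b+ alone was not counted. The share on the low side was well above the background, and 4 of the 10 were plexins.

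Between ILC1 and CD11b+, Sema4f was higher in ILC1, 1 of 21 members (4.76%) against 5.66% of 10411 genes. There were 13 (61.9%) lower in ILC1, against 12.9%: the 10 just named except Sema4a, and Sema4b, Sema6b, Nrp2 and Epha2. The median log2 ratio was −2.6 (quartiles −3.98 and −0.03), beside −0.03 over all genes, and −1.82 over all members with a count. Here too the filter fixed the sign for members that reached 1 CPM in CD11b+ alone. The comparisons with CD11b+ share that library, so their lists are not independent of each other. The medians were the same with genes at 0 counts set to their bounds, though this could not move them. The bounds, such as 6.44-fold for Plxnb3 in iCD8a against ILC1, stayed on the same side of each median.

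**Figure D4:**
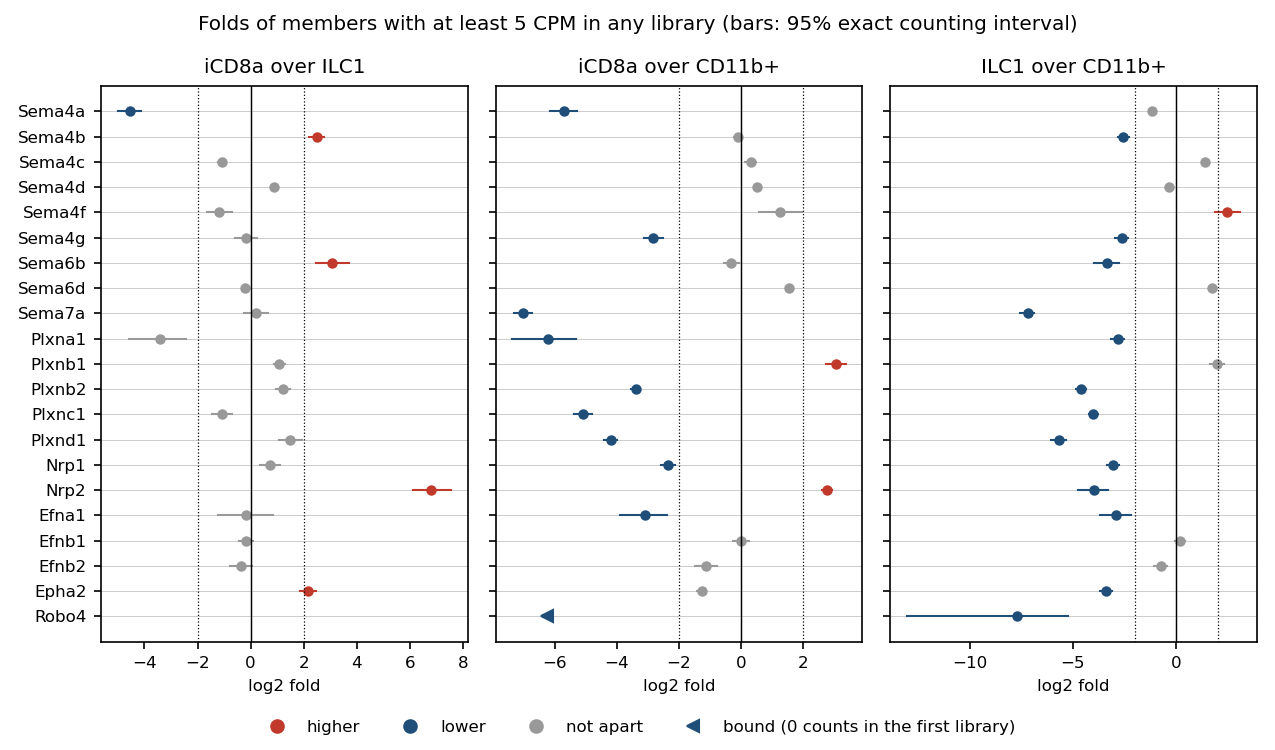
Log2 folds of the 21 members that reach 5 CPM in some library, in 3 panels (iCD8a over ILC1, iCD8a over CD11b+, ILC1 over CD11b+), each with its own scale, 95% exact counting intervals as bars and dotted lines at 4-fold. Nrp2 lies furthest right between the lymphoid libraries at 109.8-fold, and Sema7a lies at 129-fold and 147.5-fold on the low side of the panels against CD11b+.

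Against both other libraries at once, Nrp2 was the 1 member higher in iCD8a, 4.76% of 21 against 1.46% of 10712 genes. No member was higher in ILC1 than in both others, against 1.62%. In CD11b+ there were 9 (42.9%), against 10.1%: Sema7a, Sema4g, Plxna1, Plxnb2, Plxnc1, Plxnd1, Nrp1, Efna1 and Robo4. Epithelial markers were lower in iCD8a than in CD11b+ for 21 of 24 genes and lower in ILC1 than in CD11b+ for 22. Macrophage markers were lower for 14 and 13 of 14. Of all genes, 13.2% were lower in iCD8a and 12.9% in ILC1 than in CD11b+. Sema7a, Plxnd1, Plxnc1, Robo4 and, narrowly in iCD8a, Plxnb2 lay beyond the upper epithelial quartiles of 10.04-fold and 9.7-fold in both comparisons. Sema4g, Efna1 and Nrp1 lay beyond neither, and Plxna1 beyond the first alone. What each cell type adds to the CD11b+ levels was not tested.

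**Figure D5:**
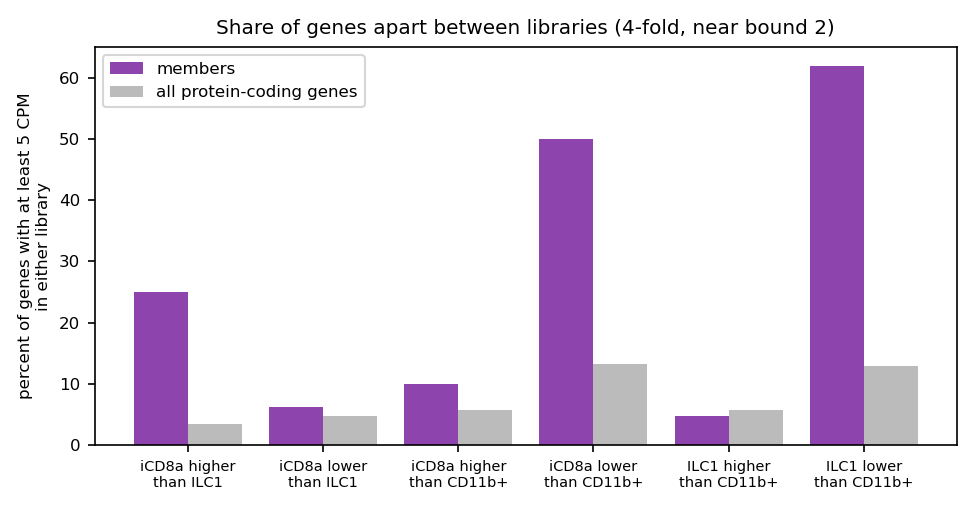
Percent of genes with at least 5 CPM in either library that stood apart in each pair and direction, for members and for all protein-coding genes (bars from 0). Members were lower in iCD8a than in CD11b+ for 50% against 13.2%, and lower in ILC1 than in CD11b+ for 61.9% against 12.9%.

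Genes that act below these receptors were counted by the same limit. Of 34 plexin signalling genes, 24 reached 5 CPM in iCD8a or ILC1, and Rnd3 was higher and Farp1 lower in iCD8a (4.17% each), close to the 3.51% and 4.74% of all genes. Against CD11b+, Fyn was higher in iCD8a (3.7% of 27, against 5.72%) and 7 genes were lower (25.9%, against 13.2%). In ILC1, Farp1 and Fyn were higher (7.14% of 28, against 5.66%) and 5 were lower (17.9%, against 12.9%), both near the shares of all genes. Farp1, an exchange factor linked to A plexins, stood at 3.56 CPM in iCD8a, compared with 31.2 in ILC1 and 2.55 in CD11b+, and values of the genes that follow are in the same order. Fyn, a Src-family kinase bound to plexins, was at 764, 684 and 146 CPM. The low genes of both lymphoid libraries were the plexin-bound GTPases Rnd1 (0.0423, 0.954 and 6.42 CPM) and Rnd3 (5.5, 0.682 and 25.3), the exchange factor Arhgef11 (3.68, 2.32 and 38.3), Mical3 (0.508, 0.273 and 11.6) and Micall2 (1.48, 0.636 and 10.6). Mical2, a redox enzyme of actin (7.15, 20.2 and 65.8 CPM), and Sh3bp1, a Rac inactivator (1312, 1922 and 8464 counts), were low in iCD8a alone by the limit, and the difference between the 2 comparisons was not tested. Rac1 (216, 224 and 441 CPM) and Rhoa (289, 312 and 489 CPM), the GTPases that these receptors steer, stood within 4-fold in every pair. The median log2 ratio of the list, iCD8a over CD11b+, was −0.75 over 32 genes at 1 CPM or more in any library. It was −0.41 over 14 other semaphorin receptors, 0.04 over 25 genes of the Eph list and −0.35 over 18 of the Slit list. For the netrin list described next it was −3.24 over only 7 genes, and over all genes 0.04.

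Of 27 genes of Eph and ephrin signalling, 0 were higher and 3 lower in iCD8a than in ILC1 (15.8% of 19 at 5 CPM or more, against 4.74% of all genes). These were the adaptor Nck2 (0.466, 13.4 and 5.46 CPM), the phosphatase Ptpn13 (1.52, 7.5 and 1.03) and the kinase Src (5.16, 28.8 and 38.7). Against CD11b+, Chn2 was higher in iCD8a (5.26% of 19, against 5.72% of all genes), and Vav2, Tiam1, Nck2 and Src were lower (21.1% of 19, against 13.2%). In ILC1, Ptpn13 was higher and Tiam1 lower than in CD11b+ (5% of 20 each, against 5.66% and 12.9%). Chn2, a Rac-inactivating chimaerin, stood at 436.5, 131 and 76 CPM. The Rac exchange factors Tiam1 and Vav2 stood at 1.35, 4.09 and 157 CPM and at 14.8, 33.1 and 103.5 CPM.

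Of 21 genes of Slit and Robo signalling, which act on many other receptors too, 0 were higher and 2 lower in iCD8a than in ILC1, Usp33 (1.95, 26.2 and 28.4 CPM) and the syndecan Sdc3 (4.49, 18.2 and 190.7), which is 12.5% of 16 at 5 CPM or more against 4.74% of all genes. Gpc1, a heparan sulphate proteoglycan that binds Slit proteins, was higher in both lymphoid libraries than in CD11b+, at 131, 302 and 24.6 CPM. As the 1 higher gene it is 5.88% of 17 in either comparison, near the 5.72% (iCD8a) and 5.66% (ILC1) of all genes. Both lymphoid libraries held less than CD11b+ of the kinase Pak1 (1.78, 6.13 and 266 CPM), of Sdc3 and of Flrt3 (0.55, 0.636 and 17). Usp33 and Sdc1 (2.24, 7.27 and 23.7 CPM) were lower in iCD8a as well, which makes 5 genes for iCD8a (29.4% of 17, against 13.2% of all genes) and 3 for ILC1 (17.6% of 17, against 12.9%).

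Of 15 matched genes of the netrin and repulsive guidance molecule pathway, 3 reached 5 CPM in iCD8a or ILC1, 5 in iCD8a or CD11b+ and 6 in ILC1 or CD11b+, too few to set shares against those of all genes. Between iCD8a and ILC1, 0 were higher and 2 lower in iCD8a, Ntng2 and Dscam. Dscam, an adhesion molecule of neurons that also binds netrin 1, stood at 0.254, 39.4 and 0.532 CPM, higher in ILC1 than in CD11b+ as well. Ntng2, a netrin G, stood at 8.84, 47.2 and 50.6 CPM. Unc5a, a netrin receptor, was higher in both lymphoid libraries than in CD11b+, at 18.8, 20.5 and 2.23 CPM. Both held less than CD11b+ of Ntn4 (0.254, 0.273 and 8.54 CPM), of neogenin, Neo1 (0.55, 0.5 and 6.38), and of Rgmb (0.423, 0.136 and 5.78), and iCD8a also held less Ntng2. The ligand Ntn1 had at most 10 counts and the netrin receptor Dcc 0.

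Set side by side by known partners, Sema4d at 822, 446 and 576.5 CPM met Plxnb1 at 28.7, 13.5 and 3.44 and Plxnb2 at 17.3, 7.45 and 181.5 CPM, in iCD8a, ILC1 and CD11b+. Sema7a and its plexin Plxnc1 were both highest in CD11b+. Sema6d was highest in the lymphoid libraries and its receptor Plxna1 in CD11b+. Nrp2 was highest in iCD8a, where its ligand Sema3f had 2 counts, against 70 in CD11b+. Levels of different genes are set beside each other here as CPM, without length, and are not compared in size.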

How the data were processed

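RNA-seq libraries of 3 sorted mouse cell populations, 1 each, formed 3 groups of 1 by their labels. The values the authors deposited are raw counts of reads per Ensembl gene. Per the series' design text, the authors aligned reads with TopHat and counted them with HTSeq, and CASAVA 1.9 and TopHat2 are named in the submitters' processing notes. For genome build, annotation and strand setting nothing was given in the sources used here.

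Symbols, biotypes and exon lengths (the union of annotated exons) were looked up by Ensembl ID in a GENCODE mouse annotation, with a match for 35449 of 37224 IDs. The 5 rows of each file that name no gene stayed out of library sizes. Of all counts in a file, alignments that were not unique took 26.9% in iCD8a, compared with 34.5% in ILC1 and 30.5% in CD11b+, and reads on no gene 9.31%, 11% and 8.56%. Reads from near-identical stretches were therefore not counted. TMM factors (edgeR 4.0.16, R 4.3.3) were 1.09, 0.992 and 0.925. With 0 residual degrees of freedom, edgeR and DESeq2 1.42.0 gave scaling factors only, and the quasi-likelihood test was not run. Intervals are exact conditional binomial for folds and exact Poisson for levels (scipy 1.17.1). Without molecular identifiers, reads are not independent molecules, and the intervals and the 3-count floor hold counting error only. Log2 ratios used a prior count of 0.5. The functions were tested on simulated Poisson counts.

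Members were taken by symbol. All members are accounted for, and those at 5 CPM or more are named with their values. Members and lists were chosen with earlier results of these data known. Of the pathway genes, those apart in a pair are named, with Rac1, Rhoa and Itgb1. Marker genes, Cd72, Ntn1, Dcc and members below 5 CPM given as examples were picked after their values were seen. Alternatives were other scalings, CPM minimums, folds and prior counts, thinning to 21678113 counts, and removal of the most abundant genes. After seeing the data, 1 alternative was added, without the mitochondrially encoded genes.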

Additional observations from a re-analysis of the deposited data

Results flagged for a closer look

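Plxna4os1, an antisense gene named after Plxna4, lay outside the comparisons, which used protein-coding genes. It had 0 counts in iCD8a, 3 in ILC1 and 96 in CD11b+, the last above the floor of 3 counts used for a count of 0. Plxna4 itself had 0 counts in iCD8a, 1 in ILC1 and 37 in CD11b+. The annotated exons of the pair share no bases, though with no stated strand setting unannotated overlap cannot be told apart.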

How the results depend on the processing

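No paired analysis was possible because each population has 1 library, and leaving out a replicate would leave a population with none. Under 5 other scalings of the 21 members at 5 CPM or more, 297 of 315 recomputed folds stayed inside their intervals, 0 of those counted as apart changed sign, and 3 changed side of the limit, all for Plxnb1 in ILC1 over CD11b+, which passed with unscaled totals, upper-quartile factors and thinned libraries (log2 2.07, 2.06 and 2.12). Unscaled totals moved the median over all genes to 0.19 for iCD8a over ILC1, against 0.06, and to 0.27 for iCD8a over CD11b+, against 0.04. The number of members apart between iCD8a and ILC1, 5, was 9 with a minimum of 1 CPM, 11 with none, 11 at 2-fold with a near bound of 1.5 and 3 at 8-fold. Between iCD8a and CD11b+, 12 became 22 with 1 CPM and 22 with none. Between ILC1 and CD11b+, 14 became 25 with 1 CPM, 25 with none and 9 at 8-fold. The median log2 ratio of iCD8a over CD11b+, −2.51, was −1.26 over members at 5 CPM or more and −1.66 over all members with a count, and that of ILC1 over CD11b+, −2.6, was −1.82 over all members with a count. Depth limits members under about 0.13 CPM, where 3 counts lie.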
